A study of Homo sapiens with 7 samples.

Results

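The small nucleolar RNA (snoRNA) genes on these arrays are 192 genes, of 18417 genes with a probe of their own. They are all genes with a single-symbol probe whose symbol starts with SNORA, SNORD or SCARNA and a number. Of these, 61 are SNORA genes (box H/ACA), 115 are SNORD genes (box C/D) and 16 are SCARNA genes (small Cajal body RNAs). The RefSeq table of GRCh38.p14 lists 573 genes with such symbols. A further 76 probes carried several symbols that included a snoRNA, and those are described apart at the end. RefSeq calls 173 of the 192 genes snoRNA, 16 noncoding RNA and 3 pseudogenes (SNORD13P1, SNORD13P2 and SNORD13P3).

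snoRNAs are stable noncoding RNAs that guide the chemical modification of other RNAs. Box C/D snoRNAs bind fibrillarin (FBL) and guide 2′-O-methylation, and box H/ACA snoRNAs bind dyskerin (DKC1) and guide pseudouridylation, mostly of ribosomal RNA. The SCARNAs do the same for spliceosomal RNAs in Cajal bodies. Most human snoRNAs are not transcribed from promoters of their own but are cut from the introns of host genes, many of which encode ribosomal proteins or nucleolar proteins. Of the 192 genes, 190 lay within another gene. Only SNORD13 and SNORD32B did not.

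The cells were SUM159, a mesenchymal triple-negative breast cancer line, grown as a 2D culture. They carried a lentiviral hairpin switched on by doxycycline for 15 days. Ctrl shRNA (a control hairpin, 2 arrays), SHP2 sh1 (a hairpin against SHP2, 2 arrays) and SHP2 sh2 (a further hairpin against SHP2, 3 arrays) were compared, and every group, controls included, had the vector and the drug. The labels do not say whether the arrays of a group were separate cultures. The p-values therefore rest on array-to-array spread, part or all of which may be technical. The labels name a column-based RNA kit and the methods of the study name TRIzol, and how far either recovers RNA of snoRNA length was not tested.

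PTPN11, the gene of SHP2, was 9.53 and 9.18 on the log2 scale with Ctrl shRNA, 7.90 and 6.93 with SHP2 sh1, and 7.96, 7.20 and 7.89 with SHP2 sh2. The 8 measured markers of the mesenchymal line averaged 9.76 to 10.55 per array, and the 7 luminal or epithelial markers 5.59 to 6.44. The 5 blood markers averaged 5.51 to 6.14 and the 5 endothelial markers 5.54 to 6.22. Both SHP2 arrays numbered 2 stood apart from the other 5 arrays. Over the snoRNA genes their levels correlated at r = 0.986 with each other and at 0.877 to 0.956 with the other arrays. The other arrays correlated with each other at 0.951 to 0.994. SHP2 sh2 replicate 1 lay between, at 0.956 and 0.949 with the arrays numbered 2 and 0.951 to 0.969 with the rest. The epithelial markers (6.36 and 6.44) and the blood markers (6.03 and 6.14) had their highest averages on the arrays numbered 2. The endothelial markers had theirs (6.22) on SHP2 sh2 replicate 2. Control levels of these 3 lists had median percentiles of 24.0, 30.1 and 22.9 of all genes. On the arrays numbered 2, 10771 genes with control levels of 2.65 to 7.39, snoRNA genes left out, also had median differences from control of 0.30 and 0.54. The part of other cell types in the results was not tested. In bulk RNA, fewer cells of a type and less RNA per cell cannot be told apart. All values are log2 expression after robust multi-array averaging (RMA), and a difference of 1 is a factor of 2 in signal. Levels of different probes are not set against each other. A difference from control on a single array is that array's value minus the mean of both Ctrl shRNA arrays.

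The form of these RNAs can be shown with SCARNA16, a box H/ACA RNA whose last bases overlap the RefSeq hairpin of MIR6516. Hairpins that overlap a snoRNA gene were searched on the plus strand alone, and not on every chromosome. Other members may thus have bases in the sequences used. SCARNA16 was the only member found in that search. Its 3′ end, at chr17:77089417-77089493 on the plus strand of GRCh38.p14, reads as follows, with the ACA box in capitals. RefSeq places the whole gene at 77089307 to 77089493.
SCARNA16: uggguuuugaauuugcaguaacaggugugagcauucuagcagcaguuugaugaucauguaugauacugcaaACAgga
The ACA box ended 3 bases before the 3′ end of the gene, the place that gives the class its name. SCARNA16 was 8.05 and 7.95 with Ctrl shRNA, 7.79 and 8.31 with SHP2 sh1, and 8.08, 8.54 and 8.03 with SHP2 sh2, so the groups overlapped.

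No snoRNA gene passed an adjusted p of 0.05 in limma, for SHP2 sh1, for SHP2 sh2 or for both hairpins averaged, each against Ctrl shRNA, or between the hairpins. No other gene did either, so 0% of the 18417 genes were called in each of these comparisons. At an unadjusted p under 0.05 there were 6 snoRNA genes (3.12%, with 1.09% of all genes) for SHP2 sh1 and 9 (4.69%, with 2.35% of all genes) for SHP2 sh2. Averaged over both hairpins there were 8 (4.17%, with 1.94% of all genes), and between the hairpins 1 (0.521%, with 0.63% of all genes). These counts moved with single arrays. Without SHP2 sh1 replicate 1 they were 58 (30.2%, with 7.14% of all genes) for SHP2 sh1, 55 (28.6%, with 8.07% of all genes) averaged over both hairpins and 22 (11.5%, with 1.91% of all genes) between the hairpins, and without SHP2 sh1 replicate 2 the count for SHP2 sh1 was 0. Without both SHP2 arrays numbered 2 they were 14 (7.29%, with 10.4% of all genes) for SHP2 sh1, 36 (18.8%, with 12.1% of all genes) for SHP2 sh2, 28 (14.6%, with 8.36% of all genes) averaged over both hairpins and 35 (18.2%, with 18.8% of all genes) between the hairpins. In each of these fits 0 were past the adjusted threshold. The smallest adjusted p of all snoRNA genes averaged over both hairpins was 0.758. The differences below are therefore given as values, and none passed the test.

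The place of the SHP2 arrays against the controls differed in count between the classes, a difference that was not tested. In all, 25 snoRNA genes had all 5 SHP2 arrays above both controls (8.13% of all genes did), and 20 had all 5 below both controls (7.17% of all genes). Of the 61 SNORA genes 12 lay above and 1, SNORA23, below. Of the 115 SNORD genes 10 lay above and 17 below, and of the 16 SCARNA genes 3 above and 2 below. Over the 3 SHP2 arrays left without those numbered 2, the counts were 27 above (10.1% of all genes) and 26 below (8.81% of all genes), with 13 SNORA genes above and 5 below.

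**Figure D1:**
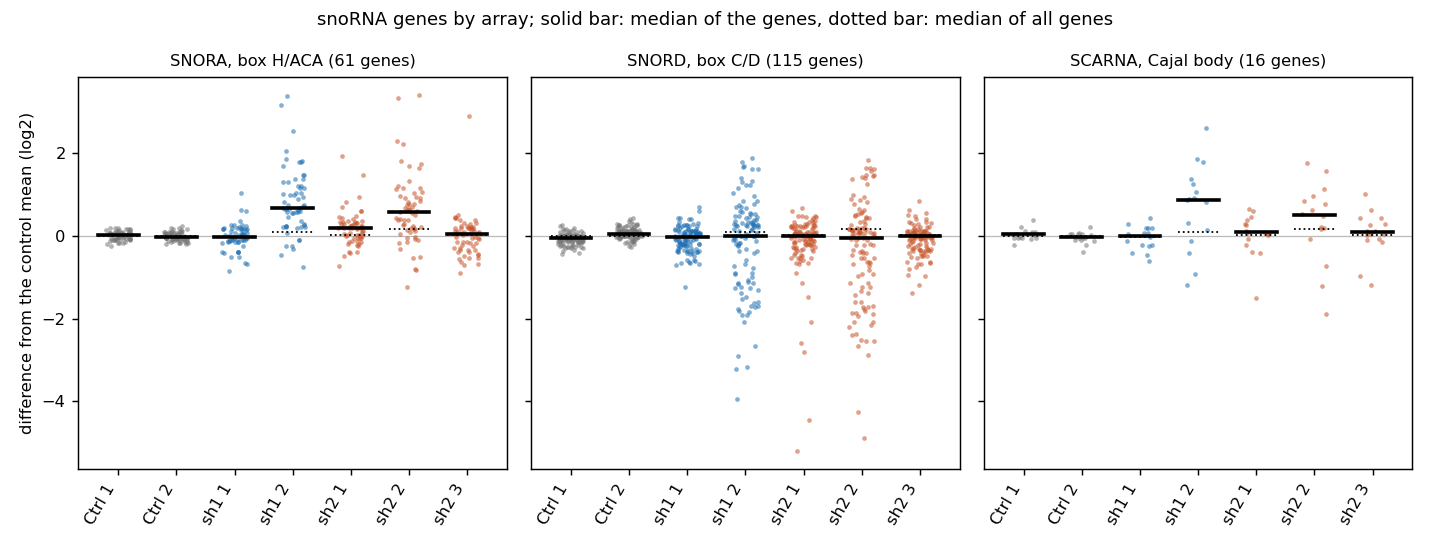
Difference of each snoRNA gene from the mean of both Ctrl shRNA arrays (log2, y axis) on each of the 7 arrays (x axis), with SNORA, SNORD and SCARNA genes in separate panels. Each point is a gene, the solid bar is the median of the panel's genes and the dotted bar the median of all 18417 genes. The SNORA median is 0.67 for the second SHP2 sh1 array and 0.58 for the second SHP2 sh2 array. The SNORD genes spread in both directions on those arrays around medians near 0. These SNORD medians include the repeated families SNORD113 to SNORD116 and are below 0 without them.

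The box H/ACA genes lay higher on both SHP2 arrays numbered 2 and nearer the controls on the others. The SNORA median difference from control was 0.67 on SHP2 sh1 replicate 2 (54 of 61 genes above 0) and 0.58 on SHP2 sh2 replicate 2 (49 of 61). On SHP2 sh1 replicate 1 it was -0.03, on SHP2 sh2 replicate 1 it was 0.20 and on SHP2 sh2 replicate 3 it was 0.05. The median of all genes ran from -0.02 to 0.18 over these 5 arrays. Among the 8696 other genes in the same range of control levels as the middle of the SNORA genes, the median difference was 0.20 and 0.28 on the arrays numbered 2. The controls differed by a median of -0.06 over the SNORA genes. Averaged over both hairpins the SNORA median was 0.32, with 47 of 61 genes above 0. Without both SHP2 arrays numbered 2 it was 0.02, and for SHP2 sh1 it was 0.30 with both arrays and -0.03 without replicate 2.

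SNORA14A had the largest mean difference among the SNORA genes. It lies in POR, the gene of cytochrome P450 oxidoreductase, at 75943783 to 75943916 on chromosome 7. Its values were 5.55 and 5.69 with Ctrl shRNA, 6.65 and 9.0 with SHP2 sh1, and 7.56, 8.95 and 8.52 with SHP2 sh2. All 5 SHP2 arrays were above both controls, and it was high on SHP2 sh2 replicate 3 as well, where the SNORA median was near 0. The log2 difference averaged over both hairpins was 2.47 (SE 0.65, adjusted p = 0.758 in limma), and 1.73 without both SHP2 arrays numbered 2.

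SNORA80E, which lies in KHDC4, had values of 8.32 and 8.38 with Ctrl shRNA, 8.96 and 11.53 with SHP2 sh1, and 9.82, 11.76 and 8.65 with SHP2 sh2. It too was above both controls on all 5 SHP2 arrays, with a difference of 1.81 (SE 0.95, adjusted p = 0.758 in limma). Without both SHP2 arrays numbered 2 the difference was 0.75. SNORA7B, which lies in the pseudogene RPL32P3, reached 10.43 and 10.67 on the arrays numbered 2 and was 7.90 on SHP2 sh2 replicate 3, below its controls of 8.44 and 8.32.

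Further SNORA genes with every SHP2 array above both controls were SNORA28, in EIF5, and SNORA3A, in the ribosomal protein gene RPL27A. SNORA28 was 6.12 and 6.25 with Ctrl shRNA, 6.80 and 7.55 with SHP2 sh1, and 6.49, 7.10 and 6.57 with SHP2 sh2. SNORA3A was 12.05 and 11.79, then 12.29 and 13.12, then 12.61, 13.26 and 12.10 in the same order. Both had their highest values on the arrays numbered 2, and their differences averaged over both hairpins were 0.77 (SE 0.28) and 0.76 (SE 0.37), each with an adjusted p of 0.758. The others in this place were SNORA2B, SNORA46, SNORA52, SNORA55, SNORA58, SNORA60, SNORA70F and SNORA80A.

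SNORA23, in IPO7, was the SNORA gene below both controls on every SHP2 array. It was 12.71 and 12.63 with Ctrl shRNA, 12.56 and 12.44 with SHP2 sh1, and 11.94, 12.35 and 11.77 with SHP2 sh2. The lowest values were on SHP2 sh2 replicates 1 and 3, which did not stand apart. SNORA22, SNORA68 and SNORA71D also have high signal, and their groups overlapped. SNORA71D was 12.27 and 11.93 with Ctrl shRNA, 11.72 and 12.68 with SHP2 sh1, and 12.15, 12.65 and 11.76 with SHP2 sh2. It has close copies in SNORA71A and SNORA71C, all 3 within SNHG17, and their probes may share signal. SNORA70 copies, such as SNORA70D at 6.38 and 6.06 with Ctrl shRNA and 6.07 to 6.88 on the SHP2 arrays, are uncertain in the same way.

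The SCARNA genes also lay higher on both SHP2 arrays numbered 2. Their median difference from control was 0.88 on replicate 2 of SHP2 sh1 and 0.51 on replicate 2 of SHP2 sh2, with 12 of 16 genes above 0 on each, and 0.01 to 0.09 on the other SHP2 arrays. The 3821 other genes in the middle of their range of control levels had medians of 0.32 and 0.47 on the arrays numbered 2, so on SHP2 sh2 replicate 2 the SCARNA median was close to theirs. Averaged over both hairpins it was 0.34, and 0.06 without both SHP2 arrays numbered 2. SCARNA5 and SCARNA6 lie in ATG16L1, an autophagy gene, and carry both box types. SCARNA6 was 6.70 and 6.61 with Ctrl shRNA, 6.63 and 9.27 with SHP2 sh1, and 7.31, 8.42 and 7.67 with SHP2 sh2. SCARNA5 was 6.34 and 6.40, then 6.55 and 8.16, then 6.97, 7.95 and 6.81. SCARNA6 overlapped the controls on SHP2 sh1 replicate 1, and SCARNA5 was above both controls on every SHP2 array.

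SCARNA10, which guides modification of the U5 spliceosomal RNA and lies in NCAPD2, was 7.05 and 7.13 with Ctrl shRNA, 7.39 and 8.47 with SHP2 sh1, and 7.39, 8.24 and 7.39 with SHP2 sh2. SCARNA11, in CHD4, was also above both controls on all 5 SHP2 arrays. SCARNA7 (8.26 and 8.35 with Ctrl shRNA, 8.16 to 9.20 on the SHP2 arrays) and SCARNA12 (10.68 and 10.60, then 10.39 to 11.46) overlapped the controls. Below both controls on every SHP2 array were SCARNA17 and SCARNA23. SCARNA17, in SNHG22, was 8.67 and 9.09 with Ctrl shRNA, 8.46 and 8.46 with SHP2 sh1, and 8.46, 8.15 and 7.92 with SHP2 sh2. Its difference of -0.56 (SE 0.22, adjusted p = 0.758) was -0.55 without both SHP2 arrays numbered 2, so it was as large without those arrays. SCARNA23, whose control mean of 3.32 was at percentile 1.48 of all genes and was not shown to be above background, differed by -0.09 (SE 0.15).

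SCARNA9 was lower, where most SCARNA genes were higher. It was 6.51 and 6.31 with Ctrl shRNA, 6.49 and 5.23 with SHP2 sh1, and 4.91, 4.52 and 5.23 with SHP2 sh2. All 3 SHP2 sh2 arrays were below the controls by over 1, and only replicate 2 of SHP2 sh1 was. It was the only snoRNA gene with an unadjusted p under 0.05 between the hairpins, with SHP2 sh2 lower than SHP2 sh1 by a log2 difference of -0.97 (SE 0.40, adjusted p = 1 in limma). Its copy SCARNA9L, in EIF1AX, was 5.51 and 5.08 with Ctrl shRNA, 4.83 and 4.38 with SHP2 sh1, and 4.91, 4.08 and 5.19 with SHP2 sh2.

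Over all 115, the box C/D genes had medians near 0 on every array, and their differences varied with gene length. The 115 include 20 SNORD115 copies of weak signal, with control means within the lowest 2.42% of genes. The SNORD median difference from control ran from -0.04 to 0.00 over the 5 SHP2 arrays. Without the repeated families SNORD113 to SNORD116 it was -0.21 on replicate 2 of SHP2 sh1 and -0.54 on replicate 2 of SHP2 sh2, over 69 genes. SNORD genes are 60 to 205 nt long, with a median of 81 nt, and SNORA genes have a median of 134 nt. Over the 115 SNORD genes, the difference from control and gene length had a Spearman correlation of 0.65 on SHP2 sh1 replicate 2 and 0.62 on SHP2 sh2 replicate 2. It was 0.35 on SHP2 sh1 replicate 1, 0.56 on SHP2 sh2 replicate 1 and 0.30 on SHP2 sh2 replicate 3. These are correlations across genes of 1 array, which share host genes and probe families and are not independent replicates. Over the 69 genes outside the repeated families they were 0.58, 0.55, 0.03, 0.48 and 0.32 in the same order. Between the 2 control arrays the correlation with length was -0.28.

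**Figure D2:**
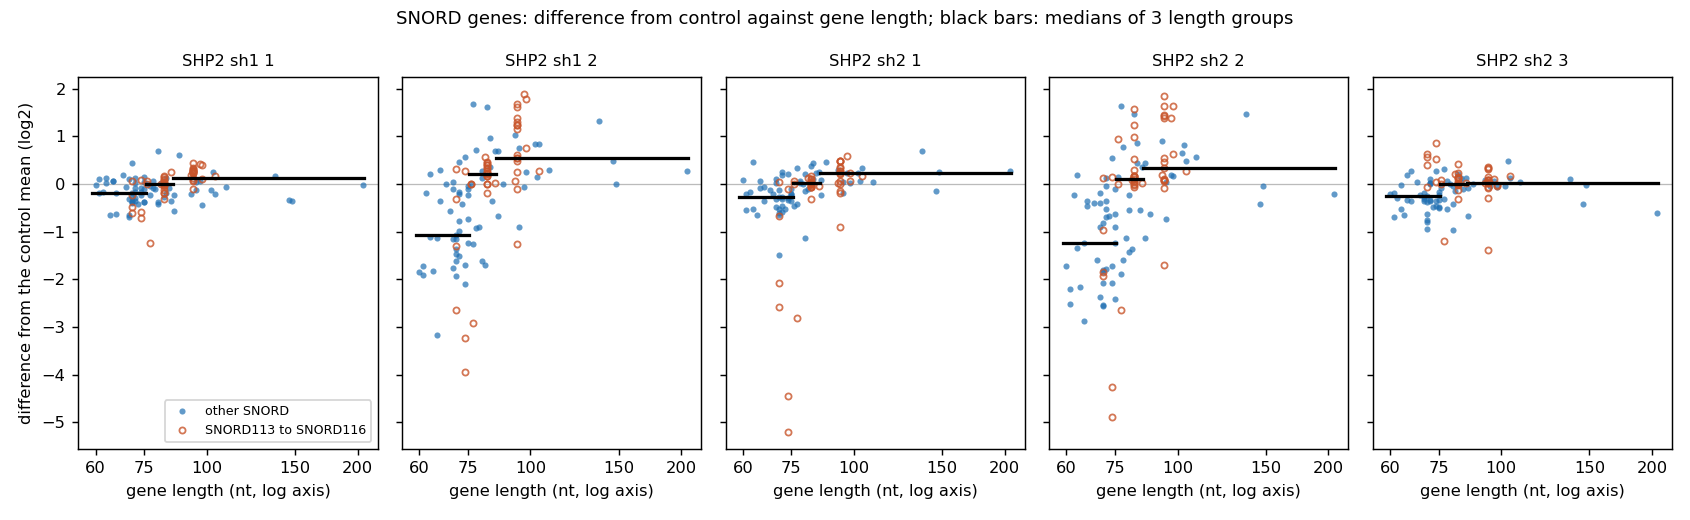
Difference of each of 115 SNORD genes from the mean of both Ctrl shRNA arrays (log2, y axis) against its gene length in nt (x axis, log scale), with a panel for each SHP2 array. Filled points are single SNORD genes, open points the repeated families SNORD113 to SNORD116, and black bars the medians of genes up to 75 nt, of 76 to 85 nt and over 85 nt. On SHP2 sh1 replicate 2 and SHP2 sh2 replicate 2 the shortest genes have medians of -1.07 and -1.23, and the longest 0.54 and 0.33 (0.29 and 0.18 over the 16 outside the repeated families).

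The shortest box C/D genes were lower on the SHP2 arrays and the longest, many of them SNORD116 copies, were not. The length groups were chosen after the values were seen. In the 45 genes up to 75 nt the median difference was -1.07 on replicate 2 of SHP2 sh1 and -1.23 on replicate 2 of SHP2 sh2. On SHP2 sh1 replicate 1, SHP2 sh2 replicate 1 and SHP2 sh2 replicate 3 it was -0.18, -0.27 and -0.24. So the direction was shared by all 5 arrays. Over these genes the second control array exceeded the first by a median of 0.25. The size on the 3 SHP2 arrays not numbered 2 was about as large as that. Of these 45 genes 14 had all 5 SHP2 arrays below both controls (31.1%, with 7.17% of all genes) and 0 had all 5 above (8.13% of all genes). Over the 38 outside the repeated families the medians on the arrays numbered 2 were -1.03 and -1.07. In the 35 genes over 85 nt the medians were 0.54 and 0.33 on the arrays numbered 2, with 0.20 and 0.32 for the 11891 other genes in the middle of their range of levels, so on SHP2 sh2 replicate 2 their median was close to that of other genes. Outside the repeated families 16 of the 35 were left, with medians of 0.29 and 0.18. Of the 35 genes 8 had all 5 SHP2 arrays above both controls (22.9%, with 8.13% of all genes), of which 6 were SNORD116 copies, and 1 had all 5 below (2.86%, with 7.17% of all genes). The 35 genes of 76 to 85 nt had medians of 0.21 and 0.10. Outside the repeated families that leaves 15 genes, with medians of 0.13 and -0.23.

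Other genes of like signal were not lower on these arrays. The SNORD genes up to 75 nt had a median control level of 6.94, and 8543 other genes in the middle of their range of levels had medians of 0.26 and 0.40 on the arrays numbered 2. Within the 61 SNORA genes, which differ little in length, the Spearman correlation with length on those arrays was 0.03 and 0.07. The part of RNA length as such in these differences was not tested.

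The snoRNAs of GAS5 were among the lowest on the arrays numbered 2. GAS5 is a noncoding gene on chromosome 1 that carries box C/D snoRNAs in its introns, and 7 of the 10 on the list had a probe of their own. The median difference of the 7 was -1.69 on replicate 2 of SHP2 sh1 and -1.72 on replicate 2 of SHP2 sh2, with all 7 below 0 on both, and 0.02, -0.11 and -0.20 on the other SHP2 arrays. SNORD78 (65 nt) was 8.36 and 8.64 with Ctrl shRNA, 8.57 and 5.33 with SHP2 sh1, and 8.55, 5.62 and 8.17 with SHP2 sh2. The arrays numbered 2 were lower by over 2 and the others were within about 0.3 of the controls. Its difference of -1.30 (SE 1.06) averaged over both hairpins was -0.03 without those arrays. SNORD79 (81 nt), at 5.93 and 6.25 on those arrays, and SNORD81 (77 nt), at 6.90 and 6.28, were low there too. SNORD77 was at 2.94 and 3.17 there against 3.96 and 4.21 with Ctrl shRNA, a weak signal at percentile 5.90 of all genes. SNORD74 (72 nt) moved little, with 10.16 and 10.26 with Ctrl shRNA and 9.86 to 10.45 on the SHP2 arrays. GAS5 itself had no probe of its own.

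Short snoRNAs of other hosts were low on the same arrays and, to a smaller extent, on the rest. SNORD28 and SNORD30 lie in SNHG1, and SNORD50A and SNORD50B lie in SNHG5. SNORD50B was 6.95 and 6.94 with Ctrl shRNA, 6.75 and 5.47 with SHP2 sh1, and 6.34, 4.87 and 6.30 with SHP2 sh2. SNORD50A was 8.37 and 8.63, then 8.12 and 7.76, then 8.24, 7.26 and 8.02. Both were below both controls on all 5 SHP2 arrays, with differences of -0.97 (SE 0.51) and -0.61 (SE 0.30) and adjusted p of 0.758. SNORD28 was 9.66 and 9.37 with Ctrl shRNA, 9.14 and 8.27 with SHP2 sh1, and 9.31, 7.11 and 9.02 with SHP2 sh2. SNORD30 was likewise below both controls throughout. In RPL23A, SNORD4A, SNORD4B and SNORD42A were all below both controls on every SHP2 array, and SNORD42A differed from its control mean by -2.21 on SHP2 sh2 replicate 2.

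Outside these hosts, SNORD20, SNORD38A and SNORD61 had the smallest p among the single SNORD genes that were below both controls on every SHP2 array. SNORD20 (80 nt, in NCL, the gene of nucleolin) was 3.95 and 4.46 with Ctrl shRNA, 3.79 and 2.58 with SHP2 sh1, and 3.06, 2.79 and 3.23 with SHP2 sh2. Its difference was -1.10 (SE 0.36, adjusted p = 0.758 in limma). SNORD38A (71 nt) was 5.97 and 6.23, then 5.74 and 5.03, then 5.45, 5.28 and 5.16, with a difference of -0.75 (SE 0.24). Both were lower on the 3 other SHP2 arrays as well, with differences of -0.74 and -0.57 without the arrays numbered 2. SNORD61 (73 nt, in RBMX) differed by -0.49 (SE 0.18), and by -0.47 without those arrays. The control means of SNORD20 and SNORD61 were at percentiles 6.88 and 3.64 of all genes, so their signal was weak and was not shown to be above background.

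Several of these snoRNAs serve as references in RT-qPCR of small RNAs. Of 13 such genes on the list, 7 were measured, and 6 of the 7 had a difference below 0 averaged over both hairpins, with a median of -0.49. On SHP2 sh1 replicate 2 and SHP2 sh2 replicate 2 their medians were -0.58 and -0.68, and on SHP2 sh1 replicate 1, SHP2 sh2 replicate 1 and SHP2 sh2 replicate 3 they were -0.07, -0.21 and -0.23. SNORD49A was 5.93 and 5.84 with Ctrl shRNA, 5.50 and 4.73 with SHP2 sh1, and 5.36, 4.03 and 5.51 with SHP2 sh2. SNORD38B was 5.57 and 5.82, then 5.63 and 5.12, then 5.49, 4.10 and 5.47. SNORD43 (62 nt) had the smallest difference of the 6, -0.21 (SE 0.18), with 7.85 and 7.50 with Ctrl shRNA and 7.38 to 7.50 on the SHP2 arrays. SNORD95 was the member above 0, with a difference of 0.16.

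**Figure D3:**
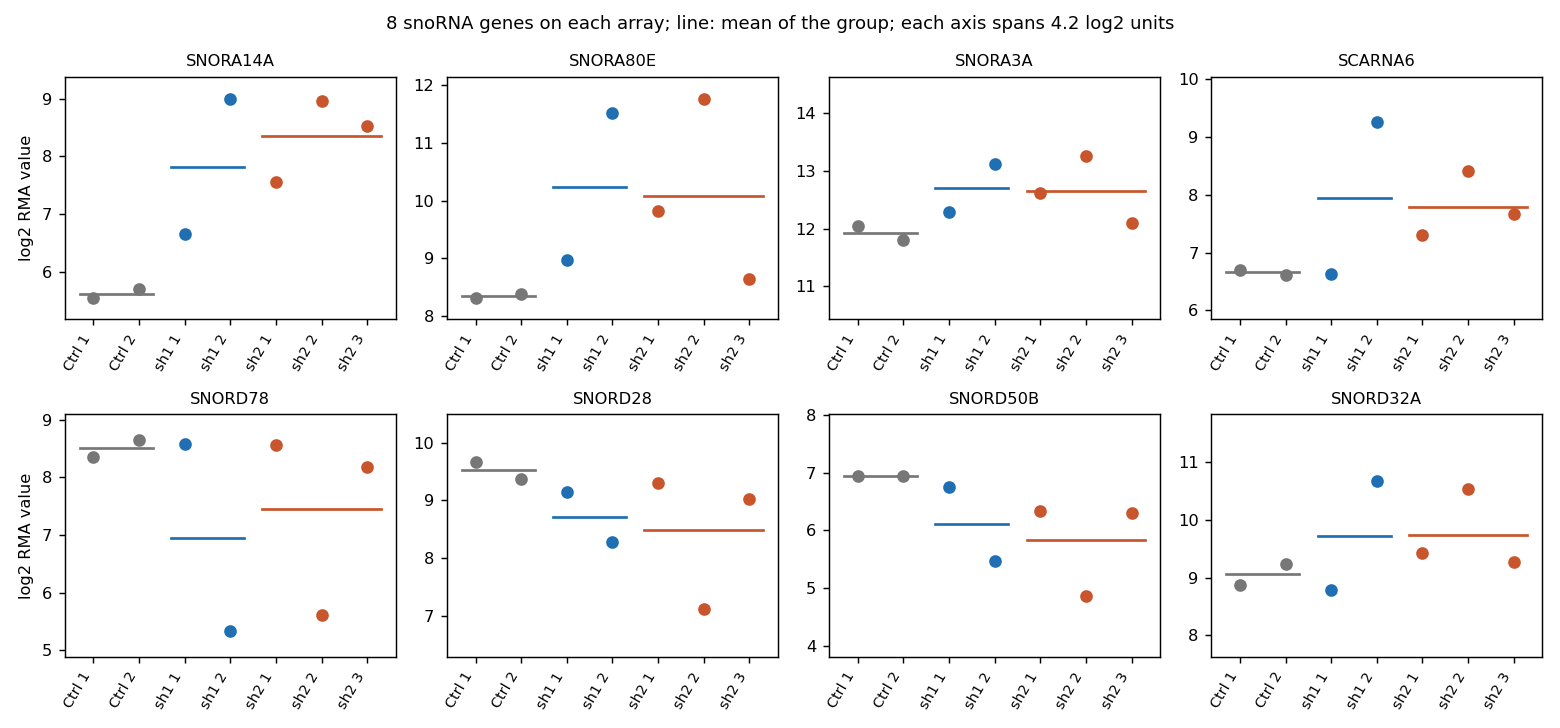
log2 RMA values (y axis) of 8 snoRNA genes on each of the 7 arrays (x axis), with gray for Ctrl shRNA, blue for SHP2 sh1 and orange for SHP2 sh2. Points are single arrays and lines group means, and every axis spans the same number of log2 units. SNORA14A lies between 6.65 and 9.0 on the SHP2 arrays, above both controls on each, and SNORD78 is at 5.33 and 5.62 on the arrays numbered 2 and at 8.17 to 8.57 on the other SHP2 arrays.

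The snoRNAs of RPL13A are known to take part in lipotoxic stress responses. SNORD32A, SNORD33 and SNORD35A, of 82 to 86 nt, were higher on the arrays numbered 2, and SNORD34 (66 nt) was not on both. SNORD32A (82 nt) was 8.87 and 9.24 with Ctrl shRNA, 8.78 and 10.68 with SHP2 sh1, and 9.43, 10.53 and 9.27 with SHP2 sh2. SNORD33 (83 nt) was 11.44 and 11.70, then 11.38 and 12.53, then 11.67, 12.43 and 11.60. SNORD35A (86 nt) was 9.77 and 9.53 on the arrays numbered 2 against 8.91 and 9.25 with Ctrl shRNA. SNORD34, the shortest of the 4, was 7.55 and 6.79 there against 7.12 and 7.37, so it followed neither direction on both. All 4 overlapped the controls, and the differences averaged over both hairpins were 0.68 (SE 0.57), 0.36 (SE 0.38), 0.10 (SE 0.36) and -0.01 (SE 0.26).

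Of 15 snoRNAs listed for cleavage or acetylation of precursor ribosomal RNA, 3 had a probe of their own. SNORD13, which guides acetylation of 18S ribosomal RNA by NAT10, was 12.22 and 12.15 with Ctrl shRNA, 11.98 and 13.02 with SHP2 sh1, and 12.51, 12.66 and 12.32 with SHP2 sh2. Its pseudogene SNORD13P3 had nearly the same pattern, from 12.12 and 12.22 to 13.01 and 12.81 on the arrays numbered 2, and may share its signal. SNORD14C and SNORD14E are copies of U14, which is needed to make 18S ribosomal RNA, and lie in HSPA8. SNORD14C was 10.84 and 10.36 with Ctrl shRNA, 11.21 and 10.60 with SHP2 sh1, and 11.07, 9.97 and 10.61 with SHP2 sh2. SNORD14E was 8.74 and 8.38, then 9.25 and 8.82, then 8.77, 8.02 and 8.51. Both had their lowest value on SHP2 sh2 replicate 2 and their highest on SHP2 sh1 replicate 1. Differences averaged over both hairpins were 0.31 (SE 0.30) for SNORD13, 0.12 (SE 0.35) for SNORD14C and 0.18 (SE 0.27) for SNORD14E.

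Among the long box C/D genes outside repeated families, SNORD94 (137 nt, in PTCD3), which guides methylation of the U6 spliceosomal RNA, had every SHP2 array above both controls. It was 7.29 and 7.37 with Ctrl shRNA, 7.48 and 8.65 with SHP2 sh1, and 8.01, 8.79 and 7.44 with SHP2 sh2. SNORD15A and SNORD15B, of 148 and 146 nt in RPS3, did not follow it. SNORD15A was at 7.30 to 7.90 on the SHP2 arrays against 7.68 and 7.63 with Ctrl shRNA. SNORD15B was 8.03 and 7.97 with Ctrl shRNA, 8.49 on SHP2 sh1 replicate 2 and 7.59 on SHP2 sh2 replicate 2. SNORD57 (72 nt, in NOP56) was 11.16 and 11.42 with Ctrl shRNA and 11.21 to 11.74 on the SHP2 arrays, with no fall on the arrays numbered 2.

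The imprinted SNORD116 copies, whose loss is part of the cause of Prader-Willi syndrome, make up much of the group of long SNORD genes. They lie in SNHG14 on chromosome 15 and are near-identical in part, so single copies are uncertain. The 20 measured copies had a median difference of 0.69 on SHP2 sh1 replicate 2 and 0.40 on SHP2 sh2 replicate 2, with 18 of 20 above 0 on each, and 0.25, 0.22 and 0.04 on the other arrays. SNORD116-15 was 11.25 and 11.32 with Ctrl shRNA, 11.58 and 12.53 with SHP2 sh1, and 11.76, 12.70 and 11.22 with SHP2 sh2. SNORD116-23 was 6.24 and 6.32, then 6.62 and 7.96, then 6.76, 7.91 and 6.62. SNORD116-1 was 6.34 and 6.48, then 6.83 and 8.30, then 7.0, 7.80 and 6.52. The last 2 and SNORD116-10, SNORD116-11, SNORD116-16 and SNORD116-27 were above both controls on all 5 SHP2 arrays. SNORD116-15 overlapped the controls on SHP2 sh2 replicate 3. With Ctrl shRNA SNORD116-16 was 2.81 and 2.47 and SNORD116-10 was 3.61 and 3.78. The signal of these 2 was weak and was not shown to be above background.

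SNORD116-21 went against the other copies. It was 6.98 and 7.53 with Ctrl shRNA, 7.32 and 6.01 with SHP2 sh1, and 6.36, 5.56 and 5.87 with SHP2 sh2, a difference of -1.33 (SE 0.44) for SHP2 sh2 with an adjusted p of 0.667. The 20 SNORD115 copies, which are known from brain, had levels with medians of 2.64 to 2.89 per array, and their control means were all within the lowest 2.42% of genes, and their signal was not shown to be above background. Their median differences were 0.25 and 0.14 on the arrays numbered 2 and 0.00 to 0.01 on the others. Over the 40 genes of both families the median averaged over both hairpins was 0.19, with 35 above 0, and 0 passed the test.

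The imprinted SNORD113 and SNORD114 genes of 14q32 varied widely, and arrays of the same hairpin fell on both sides. SNORD114-3 and SNORD113-4 had the widest ranges over the 7 arrays of all 192 genes. They lie in MEG8, between 100929919 and 100987116 on chromosome 14, in a stretch expressed from the maternal chromosome. SNORD114-3 (74 nt) was 8.60 and 9.28 with Ctrl shRNA, 8.22 and 5.71 with SHP2 sh1, and 3.74, 4.04 and 9.45 with SHP2 sh2. SNORD113-4 (74 nt) was 7.25 and 7.83, then 6.96 and 3.6, then 3.09, 3.28 and 8.39. Both were low on SHP2 sh1 replicate 2 and SHP2 sh2 replicates 1 and 2, near the controls on SHP2 sh1 replicate 1 and highest of all on SHP2 sh2 replicate 3. Their differences averaged over both hairpins, -2.58 and -2.44, had an SE of 1.61.

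The other copies in MEG8 were also lower on these 3 arrays than on the controls, by less. SNORD114-26 was 6.94 and 7.76 with Ctrl shRNA, 6.87 and 4.70 with SHP2 sh1, and 4.77, 5.42 and 7.98 with SHP2 sh2. SNORD114-6 was 5.01 and 5.89, then 4.84 and 4.15, then 3.37, 3.6 and 5.85. SNORD113-3 was 5.06 to 6.60 on the SHP2 arrays against 5.93 and 6.13. SNORD114-2 was the exception, below both controls on all 5 SHP2 arrays, with 6.36 and 6.64 with Ctrl shRNA, 5.26 and 3.59 with SHP2 sh1, and 3.68, 3.85 and 5.31 with SHP2 sh2. Its difference was -2.15 (SE 0.59, adjusted p = 0.758 in limma), and -1.62 without the arrays numbered 2. These copies resemble each other and their probes may share signal.

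The arrays were ordered otherwise here than for other short SNORD genes, with SHP2 sh2 replicate 1 as low as the arrays numbered 2 for most copies. MEG3, the noncoding gene next to the cluster, was 7.75 and 8.07 with Ctrl shRNA, 7.75 and 7.01 with SHP2 sh1, and 6.46, 7.53 and 8.26 with SHP2 sh2. It was lowest on SHP2 sh2 replicate 1 and highest on SHP2 sh2 replicate 3. The 16 measured microRNA genes of the stretch had median differences of 0.00 to 0.31 on the SHP2 arrays, between -0.57 and 0.78 for single genes. Most of them had weak signal, with a median percentile of 6.40 among the control means of all genes against 49.0 for the 6 SNORD113 and SNORD114 genes. DLK1 and RTL1, expressed from the paternal chromosome, were 7.99 and 5.99 on SHP2 sh2 replicate 2. On the other SHP2 arrays they were 6.85 to 7.55 and 5.03 to 5.42, against 7.12 and 7.0, and 5.15 and 4.95, with Ctrl shRNA. The neighbours were chosen after the snoRNA values were seen.

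**Figure D4:**
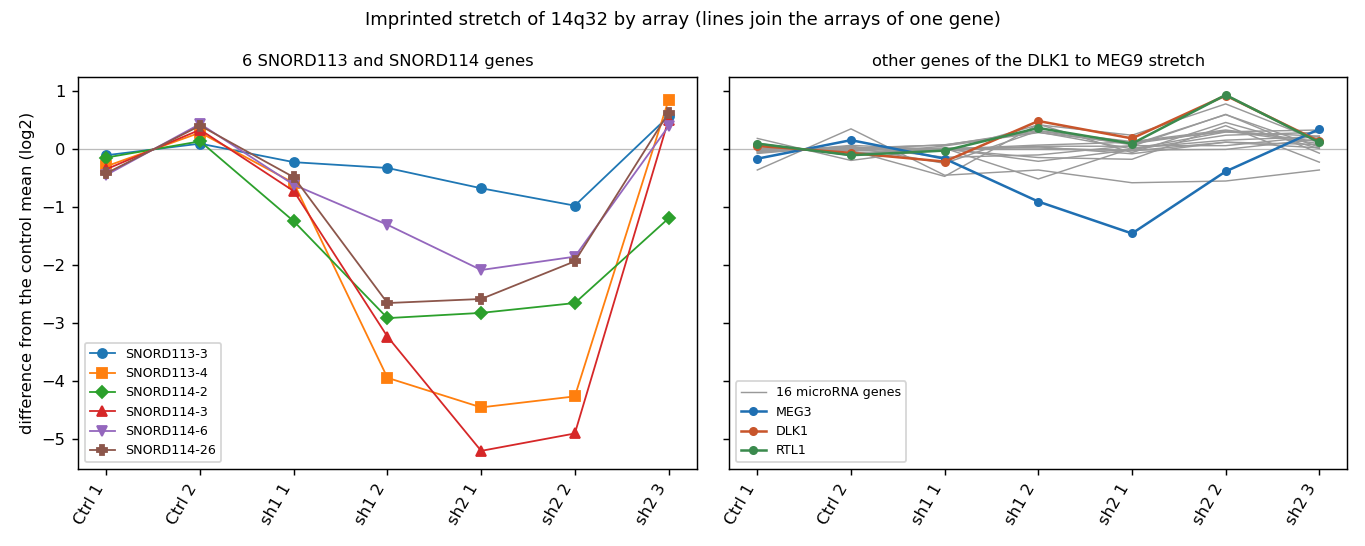
Difference from the mean of both Ctrl shRNA arrays (log2, y axis) on each array (x axis) for 6 SNORD113 and SNORD114 genes (left) and for MEG3, DLK1, RTL1 and 16 microRNA genes of the same stretch (right). Lines join the values of a gene and imply no order of the arrays. SNORD114-3 and SNORD113-4 are lower by over 3 on SHP2 sh1 replicate 2, SHP2 sh2 replicate 1 and SHP2 sh2 replicate 2, and above 0 on SHP2 sh2 replicate 3. Most microRNA genes in the right panel had weak signal in the controls.

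Between the 2 hairpins against SHP2, the snoRNA genes had a median difference of -0.10 (SHP2 sh2 minus SHP2 sh1), with 67 above 0 and 125 below, and 0 passed the test. SNORA genes had a median of -0.17, SNORD genes of -0.09 and SCARNA genes of -0.13. Without SHP2 sh1 replicate 2 the SNORA median was 0.32 and the SCARNA median 0.21, so the direction of both turned with that array. With the replicate number as a block the SNORA median was 0.025 and the SCARNA median -0.096. Beside SCARNA9 (-0.97, given above), the largest single differences below 0 were, among SNORD genes, -1.22 for SNORD114-3 (SE 1.75), -0.76 for SNORD56B (SE 0.63) and -0.73 for SNORD116-21 (SE 0.44), and, among SNORA genes, -0.48 for each of SNORA19, SNORA23 and SNORA2A. Above 0 they were 0.63 for SNORA5B (SE 0.52), 0.52 for SNORA14A (SE 0.71) and 0.29 for SNORA70D (SE 0.25), and, among SNORD genes, 0.52 for SNORD115-38, 0.50 for SNORD78 and 0.42 for SNORD115-31. Each had an adjusted p of 1 in limma.

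Box H/ACA genes lay above the genes they lie in on the arrays numbered 2. A host with a probe of its own was found for 99 of the 192 genes, in 77 hosts. Hosts were taken by position with strand not checked, and of several the first in alphabetical order was used. Some may therefore not be the gene the snoRNA is cut from. Other genes matched in level to the hosts were not compared. On SHP2 sh1 replicate 2 the 50 SNORA genes with a measured host had a median difference of 0.67 and their 42 hosts -0.54, and 47 of 50 snoRNAs lay above their host. On SHP2 sh2 replicate 2 the medians were 0.59 and -0.98, with 46 of 50 above. Of the 50, 36 lay above on SHP2 sh1 replicate 1, 39 on SHP2 sh2 replicate 1 and 23 on SHP2 sh2 replicate 3, with SNORA medians of 0.02, 0.20 and 0.06 and host medians of -0.10, -0.08 and -0.06. For 14 SCARNA genes with 13 hosts the medians were 0.88 and -0.74, then 0.58 and -1.18, with 13 of 14 above on both arrays. For 35 SNORD genes with 25 hosts they were -0.16 and -0.47, then -0.54 and -0.71, with 20 and 26 above. On the other arrays, in the order above, 9, 13 and 11 of 14 SCARNA genes and 24, 19 and 14 of 35 SNORD genes lay above their host.

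**Figure D5:**
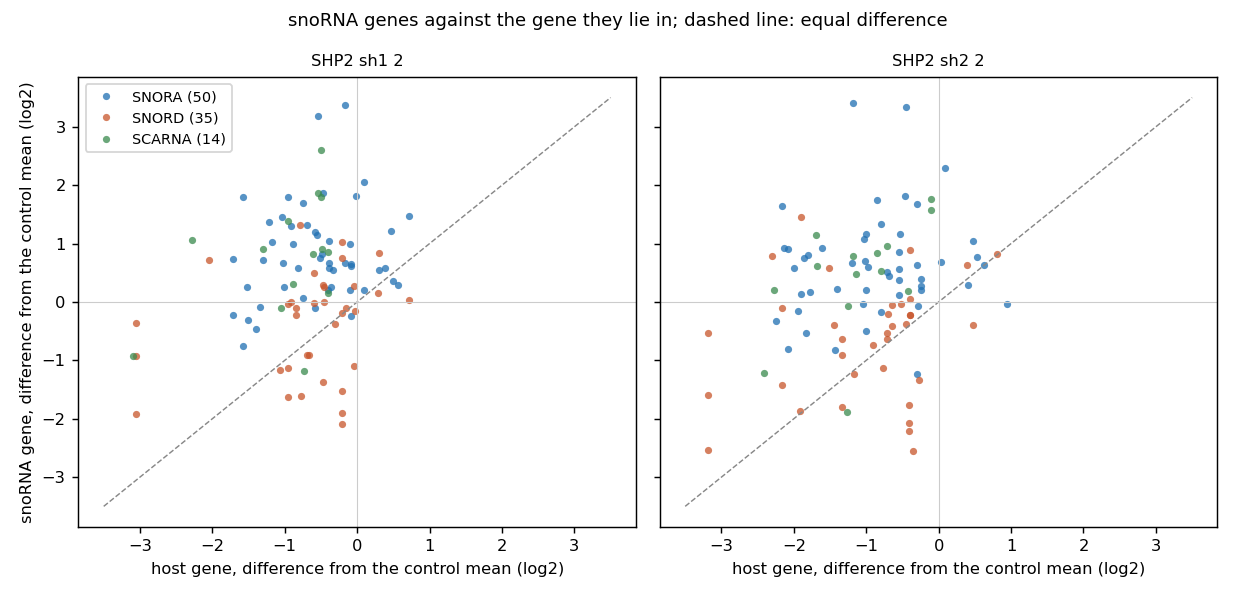
Difference of 99 snoRNA genes from the mean of both Ctrl shRNA arrays (log2, y axis) against the same difference of the gene each lies in (log2, x axis), on SHP2 sh1 replicate 2 (left) and SHP2 sh2 replicate 2 (right). Points are snoRNA genes coloured by class and the dashed line marks an equal difference. The gene was taken by position, with strand not checked. On these arrays 47 and 46 of 50 SNORA genes lie above the line.

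Box H/ACA and box C/D genes were measured side by side in 4 hosts. NCL was 10.48 and 10.12 with Ctrl shRNA, 9.82 and 9.34 with SHP2 sh1, and 9.80, 8.13 and 9.82 with SHP2 sh2. Its box H/ACA member SNORA75 (137 nt) was 7.89 and 8.10, then 8.06 and 9.79, then 8.06, 9.64 and 7.71. Its box C/D members SNORD20 (80 nt), given above, and SNORD82 (75 nt), at 6.54 and 6.75 with Ctrl shRNA and 6.48 to 6.60 on the SHP2 arrays, were not higher on the arrays numbered 2. In EEF1B2, SNORA41 (132 nt) was 7.11 and 6.68 on the arrays numbered 2 against 5.83 and 5.46 with Ctrl shRNA, and SNORD51 (70 nt) was 5.78 and 5.34 against 5.84 and 5.65. EEF1B2 itself was 7.72 and 7.47 there against 7.08 and 6.93, so both SNORA41 and its host were above the controls there. In NOP56, SNORA51 was 7.78 and 7.89 against 6.58 and 6.90, and SNORD57 11.74 and 11.42 against 11.16 and 11.42. RPL21 was unlike the others, with SNORA27 (126 nt) at 6.59 and 6.28 against 6.30 and 6.47, within or near the range of the controls, and SNORD102 (72 nt) at 3.71 and 3.94 against 4.18 and 4.77. NOP56 and RPL21 had no probe of their own. RABGGTB carries SNORD genes alone. In RABGGTB, with differences of -3.05 and -3.19 on those arrays, SNORD45A, SNORD45B and SNORD45C differed by -0.36, -1.92 and -0.93, then by -0.54, -2.54 and -1.59.

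No gene of the proteins that make up and assemble snoRNPs passed the test, as was so for all 18417 genes. Averaged over both hairpins, 5 of 6 box H/ACA proteins, both measured box C/D proteins, 8 of 8 box C/D assembly factors, 6 of 7 Cajal body and trafficking genes and 8 of 8 genes of snoRNA end processing had a difference below 0. Over all 18417 genes 7726 did. These lists had 0 genes past the adjusted threshold, and their medians were -0.41, -0.95, -0.40, -0.38 and -0.44, with 0.075 for all genes. Other genes matched in level to these lists were not compared. The lower values of the lists are therefore set against all genes alone. Most of the difference lay on the arrays numbered 2. There the 5 medians were -0.79, -1.59, -0.89, -0.66 and -0.93 for SHP2 sh1 and -1.14, -2.26, -0.62, -1.40 and -1.01 for SHP2 sh2. On SHP2 sh1 replicate 1 and SHP2 sh2 replicate 3 they ran from -0.26 to 0.00, and on SHP2 sh2 replicate 1 from -0.58 to -0.06. FBL, the methyltransferase of box C/D snoRNPs, was 10.20 and 10.13 with Ctrl shRNA, 9.75 and 8.73 with SHP2 sh1, and 9.52, 8.27 and 9.82 with SHP2 sh2. DKC1, the pseudouridine synthase of box H/ACA snoRNPs, was 8.97 and 8.47, then 8.61 and 7.87, then 8.94, 7.32 and 8.57. FBL was below both controls on every SHP2 array and DKC1 was not, and differences were -0.95 (SE 0.47) and -0.46 (SE 0.47), each with an adjusted p of 0.758.

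Of the other genes named from these lists, NOP58 had a difference of -0.94 (SE 0.78), NHP2 -0.35, NAF1 -0.63, SHQ1 -0.53, NUFIP1 -0.90, RUVBL1 -0.76, RPAP3 -0.60, ZNHIT6 -0.89, COIL -0.38, NOLC1 -0.36, TGS1 -0.64, XPO1 -0.76, EXOSC3 -0.61, MTREX -0.90, XRN1 -0.73 and XRN2 -0.77. The 16 RNA polymerase I and nucleolar genes had 14 below 0 and a median of -0.54, among them POLR1D at -0.81 (SE 0.25), POLR1B at -1.07, TAF1D at -1.14 and NCL at -0.88. The 12 genes of the small subunit processome had 11 below 0 and a median of -0.60, with UTP15 at -1.33, WDR43 at -1.10, HEATR1 at -0.83 and NAT10 at -0.68. Of 23 noncoding host genes 3 had a probe, and all 3 were below 0, with ZFAS1 at -0.51 (SE 0.20), EPB41L4A-AS1 at -0.43 and SNHG17 at -0.29. The medians of the RNA polymerase I and processome lists were -1.03 and -1.12 on SHP2 sh1 replicate 2 and -1.34 and -1.29 on SHP2 sh2 replicate 2, and -0.22 to 0.02 on the other SHP2 arrays. No adjusted p was under 0.758. For these lists too, other genes matched in level were not compared.

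Other small RNAs lay higher on the same arrays. The 30 measured genes of spliceosomal, vault, Y and related RNAs had median differences of 0.84 and 0.50 on the arrays numbered 2, with 22 of 30 above 0 on each, and -0.10, -0.02 and 0.05 on the other SHP2 arrays. RNU4-1, a gene of the U4 spliceosomal RNA, was 9.92 and 10.13 with Ctrl shRNA, 10.14 and 12.50 with SHP2 sh1, and 12.30, 12.69 and 11.36 with SHP2 sh2. RNU4-2 was 6.06 and 6.29, then 6.58 and 9.51, then 8.32, 9.04 and 7.44. Both were above both controls on all 5 SHP2 arrays, by differences of 1.69 (SE 0.65) and 1.98 (SE 0.79) with an adjusted p of 0.758. RNU2-1 differed by 0.55 and RNY1 by -0.44. The 173 microRNA genes had medians of 0.27 and 0.51 on the arrays numbered 2. Averaged over both hairpins 149 of them were above 0, and 10691 of all 18417 genes were. On the arrays numbered 2, 10771 genes with control levels of 2.65 to 7.39, snoRNA genes left out, had medians of 0.30 and 0.54. Genes matched in level to the microRNA genes were not compared. Single microRNA genes were MIR149 at 0.50, MIRLET7C at 0.51, MIR96 at 0.49 and MIR32 at -0.57.

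The 76 probes with several symbols were not counted among the 192 genes. Of these, 2 named SNORA genes alone, 20 SNORD genes alone and 54 were mixed. The median differences of the 20 SNORD probes were 0.23 and 0.13 on the arrays numbered 2 and -0.29 on SHP2 sh2 replicate 3. Those of the 54 mixed probes were 0.04 and -0.18 on the arrays numbered 2.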

How the data were processed

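Total RNA of 7 SUM159 samples was measured on Human Gene 1.0 ST arrays. Per the labels and methods, the authors ran RMA in oligo, which corrects background, normalises by quantiles and summarises probes, and deposited the log2 values. The version of oligo is not given in the sources used here. These log2 values were used as deposited. Arrays give no read depth, and the number of arrays (2, 2 and 3) limits precision.

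Symbols came from the platform annotation, updated by gene ID through the RefSeq table of GRCh38.p14 (19429 of 19460 single-symbol probes found). The probe of largest interquartile range stood for each gene, and 5 of the 192 snoRNA genes had more than 1 of 198 probes. Gene length is the RefSeq span. A host is a gene that contains the snoRNA gene, and of several measured hosts the first in alphabetical order was used. The table gives no strand, so strand was not checked. Lists of proteins, hosts and other small RNAs were written by hand.

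limma (3.58.1, R 4.3.3) fitted 3 group means over all 7 arrays with eBayes, and two-sided p-values were adjusted over 18417 genes by Benjamini-Hochberg, with a threshold of 0.05. The fit was tested on simulated data. The snoRNA genes, lists and tests were chosen with earlier results of these data known. Genes named are those past the threshold (none), the 5 SNORA, 5 SNORD and 3 SCARNA genes of highest control level, the 4 SNORA and 4 SNORD genes (2 SCARNA) of smallest p in each direction with all SHP2 arrays on the same side of both controls, the 3 of largest difference between hairpins and of largest range, listed genes (up to 4 in long lists) and PTPN11. Other snoRNA genes, and all 14q32 neighbours, were chosen after their values were seen.

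Alternatives were another probe or the mean of probes, annotation symbols, a floor at the median level (7.02), median centring, cyclic loess, eBayes with trend, only the arrays compared, a replicate block, each array left out, both SHP2 arrays numbered 2 left out, and no SNORD113 to SNORD116. Chosen after seeing the data were the length groups, with centring, loess and no repeated families, and the counts without the arrays numbered 2.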

Additional observations from a re-analysis of the deposited data

How the results depend on the processing

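No snoRNA gene passed an adjusted p of 0.05 under any alternative. At an unadjusted p under 0.05 the count for both hairpins averaged, 8 as reported (4.17%, with 1.94% of all genes), moved with the alternative. Without dim genes it was 1 of the 83 left (1.2%, with 1.68% of all genes). It was 11 with cyclic loess (5.73%, with 2.82% of all genes) and 11 with eBayes with trend (5.73%, with 1.82% of all genes). Counts with arrays left out, given above, moved widely. Between the hairpins the count was 1 as reported (0.521%, with 0.63% of all genes) and 9 with cyclic loess (4.69%, with 1.37% of all genes). Leaving out a control leaves 1 control array, which is assumed to vary like the other groups. The number of arrays limits every value here.

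Same-numbered arrays did not deviate together between Ctrl shRNA and SHP2 sh1 (r = -0.0597) or SHP2 sh2 (0.0233 and -0.0274). Between the hairpins they did (0.615 and 0.846). So did SHP2 sh1 replicate 1 and SHP2 sh2 replicate 3 (0.808), which differ in number. Deviations within a group sum to 0, so these r are not independent of each other and cannot settle pairing between the hairpins. As the controls did not deviate with same-numbered arrays, the numbers were not taken to pair the samples. With the replicate block the SNORA median averaged over both hairpins was 0.37 and the SCARNA median 0.38. In that fit 54 genes (28.1%, with 13.2% of all genes) had an unadjusted p under 0.05. There were 37 (19.3%, with 4.09% of all genes) for SHP2 sh1 and 50 (26.0%, with 18.0% of all genes) for SHP2 sh2. Between the hairpins there were 6 (3.12%, with 2.54% of all genes), and 0 were past the threshold in each.

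The SNORA median for SHP2 sh2 minus SHP2 sh1 ran from -0.53 to 0.32 with 1 array left out, the latter without SHP2 sh1 replicate 2. With cyclic loess the SNORD genes up to 75 nt had medians of -1.24 and -1.52 on the arrays numbered 2, and those over 85 nt 0.51 and 0.10.

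Of 1515 values of 103 single results under the alternatives, 35 had the opposite sign, in 19 results, and none of these was past the threshold. The cause was not tested. The following are log2 differences averaged over both hairpins unless stated. With 1 array left out, ranges crossed 0 for SNORA22 (-0.24 to 0.39), SNORA68 (-0.49 to 0.24), SNORA71D (-0.14 to 0.34), SNORD14C (-0.11 to 0.36), SNORD14E (-0.0073 to 0.36), SNORD34 (-0.14 to 0.11) and SNORD35A (-0.21 to 0.42). Between the hairpins they did for SNORA14A (-0.65 to 1.70), SNORD114-3 (-3.08 to 0.037), SNORD56B (-1.78 to 0.27) and SNORD78 (-1.12 to 2.11). Without both SHP2 arrays numbered 2 the sign turned for SCARNA7 (-0.0013), SNORA19 (0.035), SNORA22 (-0.38), SNORA5B (-0.065), SNORA71D (-0.26), SNORD13P3 (-0.018), SNORD33 (-0.062), SNORD35A (-0.29) and RPAP3 (0.10), and between the hairpins for SNORD115-38 (-0.019) and SNORD78 (-0.21). SNORA68 was 0.22 with cyclic loess and 0.011 with the replicate block. SNHG17 was 0.25 with its probe of highest mean.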
